A study of Mus musculus with 3 samples.

Results

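The let-7 family of miRNAs was followed in small RNA libraries of mouse TAG1 ES cells. The members were chosen by name, as the guide strands let-7a, b, c, d, e, f, g and i, all of the 5p arm, together with miR-98-5p, which has another name but the same seed. All 9 were listed, out of 693 miRNAs in the files. The rule for a member uses names and no measured value. TAG1 is an ES cell line derived from the J1 line, in which doxycycline (Dox) switches on a transgene for Alk4*, a constitutively active type I receptor that phosphorylates Smad2/3. All 3 libraries came from this line, so the untreated cells carried the transgene as well. The Control library came from untreated cells grown with FBS. For the SB library the cells had been exposed to 30 µM SB-431541 over 16 hrs. This is the spelling in the labels, while the study's methods give SB-431542, an inhibitor of the receptors that activate Smad2/3. The Dox library came from cells given the same 16 hrs of SB and then 12 hrs of 1 µg/µl Dox. According to the study's methods the treated cells were in medium with Knockout Serum Replacement in place of FBS. The labels describe upkeep in FBS for every sample and name no other medium. If the methods hold, medium and treatment cannot be told apart in any comparison with Control. Each condition had 1 library, pooled from 2 sequencing runs, so there was no replicate error and no p-value was computed.

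The let-7 miRNAs are among the most conserved in animals and accumulate as cells differentiate. In ES cells mature let-7 is held low because Lin28 binds the terminal loop of let-7 precursors and blocks their processing. The mature strands repress mRNAs such as Lin28, Hmga2 and Myc, and are generally set against the miRNAs of the miR-290 cluster, which are typical of ES cells.

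The mature sequences are shown because every member shares its seed, the bases 2 to 8 that pair with a target, and because the members can only be counted apart by the few bases that differ. They are from RefSeq, written from the 5′ end, with the seed in capitals.
let-7a-5p: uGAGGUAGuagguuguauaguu
let-7c-5p: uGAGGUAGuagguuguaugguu
let-7b-5p: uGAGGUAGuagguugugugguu
let-7f-5p: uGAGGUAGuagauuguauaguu
let-7d-5p: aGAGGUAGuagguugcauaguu
let-7e-5p: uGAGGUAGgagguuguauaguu
let-7g-5p: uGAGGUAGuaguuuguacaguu
let-7i-5p: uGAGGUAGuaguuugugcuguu
miR-98-5p: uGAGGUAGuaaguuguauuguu

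All 9 strands were 22 bases long, and 9 of 9 held the same seed. Counted from 1 at the 5′ end, with the base of let-7a first, let-7c differed from let-7a by A19G alone and let-7b by A17G and A19G. let-7f differed by G12A, let-7e by U9G and let-7d by U1A and U16C. let-7g carried G12U and U18C, let-7i carried G12U, A17G, U18C and A19U, and miR-98 carried G11A and A19U. Of the 36 pairs of members, 1 pair, let-7a and let-7c, shared an unbroken run of at least 17 bases, the shortest read that was kept, and that run covered the first 18 bases. Reads of only the first 17 or 18 bases therefore cannot be told apart, and the authors' rule lets such reads go to each miRNA that they match. The number of such reads was not given in the files, so the difference between let-7a and let-7c is uncertain to that extent. The 2 other mouse strands in RefSeq with this seed, let-7k and miR-1961, were not listed.

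The family is encoded by 12 hairpins at 8 places in the genome, given here on GRCm38.p6. let-7d (chr13:48536012-48536114), let-7f-1 (chr13:48537829-48537917) and let-7a-1 (chr13:48538179-48538272) lie on the minus strand, in an exon of the long non-coding RNA 6720427I07Rik. let-7c-2 (chr15:85706603-85706697) and let-7b (chr15:85707319-85707403) lie 622 bases apart on the plus strand in an exon of Lncppara. let-7f-2 (chrX:151912346-151912428) and miR-98 (chrX:151913214-151913321) lie 786 bases apart on the plus strand in an intron of Huwe1. let-7g (chr9:106178840-106178927, plus strand) is in an intron of Wdr82, and let-7i (chr10:122985640-122985724, minus strand) is in an exon of the pseudogene D630033A02Rik. Hairpins let-7a-2 (chr9:41536716-41536811), let-7c-1 (chr16:77599657-77599750) and let-7e (chr17:17830352-17830444), all on the plus strand, are intronic and lie near hairpins of the miR-99/100 and miR-125 families. Because let-7a, let-7c and let-7f each come from 2 hairpins with the same mature strand, their reads cannot be divided between loci.

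Levels are in reads per 1000000 reads (rpm), and the values correspond to a total of 10955686 reads for Control, 11354692 for SB and 9895513 for Dox. These totals were worked out here from the values. They differ from the read totals stated in the paper, and the cause was not tested. One read was worth 0.0881 to 0.101 rpm. Reads on listed miRNAs made up 28.3% of the total in Control, 24.1% in SB and 33.4% in Dox. The median log2 ratio of all 693 listed miRNAs was accordingly away from 0, at -0.19 for SB over Control, 0.38 for Dox over SB and 0.19 for Dox over Control. Intervals are exact at 95% and describe counting error alone. The reads carry no molecular identifiers, so several reads can stem from the same molecule. A miRNA was called higher or lower by the rule in the study's methods, which asks that the higher level exceed the lower by at least 25% and that the Z-score of the difference pass the 5% limit (both tails). This rule compares the reads of 2 libraries and not the conditions. In these bulk samples fewer cells of a type and less RNA per cell cannot be told apart.

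The family as a whole was highest in SB. The summed level of the 9 members was 14916 rpm in Control (interval 14844 to 14989), 27181 rpm in SB (27085 to 27277) and 14572 rpm in Dox (14497 to 14648). The Dox library was thus back near Control. As a share of the reads on listed miRNAs the family made up 5.27% in Control, 11.3% in SB and 4.37% in Dox.

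**Figure D1:**
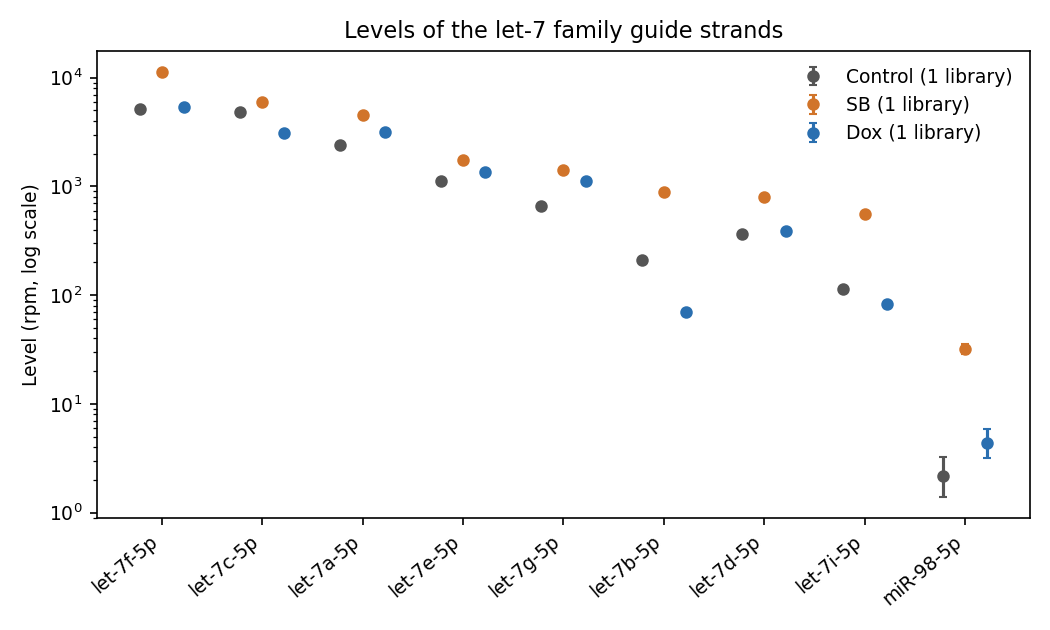
Level of each let-7 family guide strand in rpm, on a log axis, in the Control, SB and Dox libraries, with 95% Poisson intervals of counting error (1 library per condition). Every member was highest in SB, and the members span from 2.19 rpm for miR-98 in Control to 11217 rpm for let-7f in SB.

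let-7f was the most abundant member in every library, at 5185 rpm in Control, 11217 rpm in SB and 5331 rpm in Dox. let-7c, which differs from let-7a at 1 base, was at 4847 rpm in Control, 6012 rpm in SB and 3077 rpm in Dox. let-7a was at 2419 rpm in Control, 4534 rpm in SB and 3148 rpm in Dox. These 3 strands, each made from 2 hairpins, supplied 83.5% of the family's reads in Control, 80.1% in SB and 79.3% in Dox.

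The middle of the range was held by let-7e, let-7g and let-7d. let-7e was at 1116 rpm in Control, 1734 rpm in SB and 1357 rpm in Dox. let-7g was at 654 rpm in Control, 1419 rpm in SB and 1110 rpm in Dox. For both of them the Dox library stayed between the other two. let-7d was at 368 rpm in Control, 792 rpm in SB and 392 rpm in Dox, so that its Dox level lay close to Control.

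The least abundant members were let-7b, let-7i and miR-98. let-7b was at 211 rpm in Control (202 to 220), 880 rpm in SB (862 to 897) and 69.2 rpm in Dox (64.1 to 74.6). let-7i was at 113 rpm in Control (107 to 120), 561 rpm in SB (548 to 575) and 82.5 rpm in Dox (76.9 to 88.3). Both were lower in Dox than in Control. miR-98 was at 2.19 rpm in Control (24 reads, 1.40 to 3.26), 31.9 rpm in SB (362 reads, 28.7 to 35.3) and 4.35 rpm in Dox (43 reads, 3.14 to 5.85), and its ratios have the widest intervals of the family.

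All members have the same length, and their read levels can be set in order. Whether strands of different sequence were captured equally well was not tested, so the order is one of reads and may not be that of molecules. The order in Control was let-7f, c, a, e, g, d, b, i and miR-98. In SB let-7b stood above let-7d, and in Dox let-7a stood above let-7c and let-7i above let-7b. Neighbours in each order differed beyond counting error in all 3 libraries, but no spread between samples was available to judge them by. The closest were let-7a and let-7c in Dox, with a ratio of 1.02 (1.01 to 1.04), which is the pair that shares its first 18 bases. Among all listed miRNAs let-7f ranked 13 in Control, 4 in SB and 14 in Dox. let-7b ranked 107, 51 and 181 in the same libraries.

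The first comparison, SB over Control, asks what is different when endogenous Smad2/3 signalling is switched off. Of the 9 members 8 were called higher and 0 lower, while 15.3% of all listed miRNAs were called higher and 30.2% lower. The family's summed level was 1.82-fold higher (1.81 to 1.83), a log2 ratio of 0.87. The median log2 ratio of the members was 1.11, beside -0.19 for all listed miRNAs. miR-98 had the highest ratio, being 14.6-fold higher in SB (9.63 to 23.0), followed by let-7i at 4.96-fold and let-7b at 4.17-fold. This order rests on the 24 reads of miR-98 in Control. With a pseudocount of 10 rpm its log2 ratio was 1.78, below 2.21 for let-7i and 2.01 for let-7b. The ratios of let-7d, let-7f and let-7g lay close together, as let-7d was 2.15-fold, let-7f 2.16-fold and let-7g 2.17-fold higher. let-7a was 1.87-fold and let-7e 1.55-fold higher. let-7c was 1.24-fold higher (1.23 to 1.255), just short of the 25% that a call needs but with an interval that reaches it, and was the 1 member not called.

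The second comparison, Dox over SB, asks what is different once the Alk4* receptor restores signalling in cells whose own signalling was off. The Dox cells also had 12 hrs more of culture and were exposed to Dox itself. The induced receptor cannot be told apart from these here. The paper tested Dox in the parental J1 line by qPCR, for miRNAs outside the family. It shares the SB library with the first, so a high or low value in that library enters both. All 9 members were called lower in Dox, while 17.9% of all listed miRNAs were called lower and 41.7% higher. The summed level was 1.87-fold lower (1.85 to 1.88), a log2 ratio of -0.90, and the median log2 ratio was -1.01 for the members and 0.38 for all listed miRNAs. let-7b differed most, being 12.7-fold lower in Dox (11.8 to 13.7). miR-98 was 7.34-fold lower (5.34 to 10.3) and let-7i 6.81-fold lower. The abundant strands differed less, with let-7f 2.10-fold, let-7c 1.95-fold and let-7a 1.44-fold lower. let-7e and let-7g were each 1.28-fold lower, near the limit for a call. A higher level in SB followed by a lower level in Dox was called for 8 of 9 members and for 67 of 693 listed miRNAs (9.67%). The plot of both ratios shows the members in the area where SB is higher than Control and Dox is lower than SB.

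**Figure D2:**
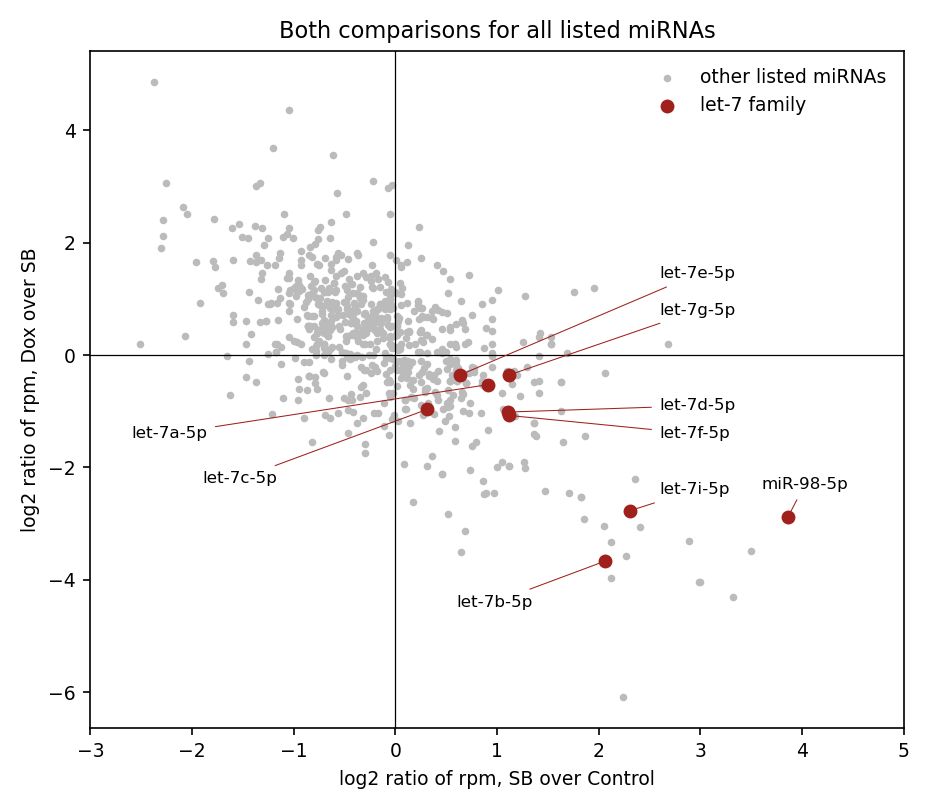
Log2 ratio of rpm for SB over Control (horizontal axis) and Dox over SB (vertical axis), each point 1 of the 693 listed miRNAs, with the let-7 family in red. Both axes share the SB library; the members run from let-7c at 0.31 and let-7e at -0.35, nearest the axes, to miR-98 at 3.86 and let-7b at -3.67.

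Dox over Control compares cells with signalling from Alk4* with untreated cells, and both other comparisons share a library with it. Here the family was split. Of the 9 members 3 were called higher (let-7a, let-7g and miR-98), 3 lower (let-7b, let-7c and let-7i) and 3 were not called (let-7d, let-7e and let-7f), beside 30.6% of all listed miRNAs called higher and 19.8% called lower. let-7g was 1.70-fold higher in Dox and let-7a 1.30-fold higher, while miR-98 was 1.98-fold higher with an interval of 1.18 to 3.42. let-7b was 3.04-fold lower, let-7c 1.58-fold lower and let-7i 1.37-fold lower. The near equality of the family's sum in these libraries, a log2 ratio of -0.03 (-0.04 to -0.02), therefore joined strands that differed in opposite directions. The sign of the sum rested on let-7c, since without it the log2 ratio was 0.19.

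A stricter call, with a fold of at least 2, left fewer members. For SB over Control 6 were called higher, beside 7.07% of all listed miRNAs. For Dox over SB 5 were called lower, beside 9.67%, and for Dox over Control 1, let-7b, was called lower, beside 8.08%.

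The scaling to total reads sets where 0 lies for these ratios. With levels scaled to the reads on listed miRNAs, 9 of 9 members were called higher in SB than in Control, let-7c included, and 23.8% of all listed miRNAs were called higher and 20.8% lower. On that scaling all 9 members were again called lower in Dox than in SB, beside 31.5% of all listed miRNAs lower and 23.5% higher. For Dox over Control 2 members were called higher and 3 lower, beside 20.6% of listed miRNAs higher and 29.1% lower. let-7d and let-7f turned sign in that comparison, at -0.15 and -0.20, while let-7b stayed at -1.84. let-7a was called higher under none of the 5 other scalings, which gave it log2 ratios of 0.08 to 0.28. Scaled to miR-26a-5p, let-7c had a log2 ratio of 0.07 for SB over Control. There 8 members were called higher, as with the authors' scaling, beside 9.38% of listed miRNAs higher and 42.9% lower. On that scaling let-7g alone was called higher for Dox over Control, at 0.46, since miR-98, at 0.69, also lost its call. The members let-7b, let-7c and let-7i were called lower there, beside 19.2% of listed miRNAs higher and 31.3% lower.

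Ratios between members do not depend on the total that a library is scaled to. The intervals of these differences are normal intervals on the log scale. Of the 36 pairs of members, 33 differed beyond counting error in their log2 ratio of SB over Control and 33 in that of Dox over SB. For SB over Control the pairs within counting error were those among let-7d, let-7f and let-7g. let-7d and let-7f have hairpins 1715 bases apart in 1 host gene on chr13, and let-7f has another hairpin on chrX. These strands also differed from each other within counting error for Dox over Control. They did not for Dox over SB, where the log2 ratio of let-7d minus that of let-7f was 0.06 (0.003 to 0.116). let-7a has a hairpin in the same host gene and another on chr9. Its log2 ratio minus that of let-7f was -0.21 for SB over Control and 0.55 for Dox over SB. For Dox over SB the pairs within counting error were let-7c with let-7d, let-7e with let-7g, and let-7i with miR-98.

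let-7b and let-7c, which have hairpins in the same host gene on chr15 and differ at 1 base, were far apart. The log2 ratio of let-7b lay 1.75 above that of let-7c for SB over Control (1.68 to 1.82). For Dox over SB the difference was -2.70 (-2.81 to -2.59). There were 23.0 reads of let-7c per read of let-7b in Control, 6.84 in SB and 44.5 in Dox. let-7c also has a hairpin on chr16, whose share of its reads is unknown. miR-98 and let-7f, which have intronic hairpins in Huwe1, also differed. The log2 ratio of let-7f minus that of miR-98 was -2.75 (-3.35 to -2.15) for SB over Control and 1.80 (1.35 to 2.26) for Dox over SB. let-7g and let-7i, each with a single hairpin and with the same base at position 12, differed as well. There were 5.78 reads of let-7g per read of let-7i in Control, 2.53 in SB and 13.5 in Dox.

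The makeup of the family therefore differed between libraries while its seed did not. let-7f supplied 34.8% of the family's reads in Control, 41.3% in SB and 36.6% in Dox. let-7c supplied 32.5% in Control but 22.1% in SB and 21.1% in Dox. The share of let-7a was 16.2% in Control, 16.7% in SB and 21.6% in Dox. let-7b, let-7i and miR-98 together made up 2.19% in Control, 5.42% in SB and 1.07% in Dox.

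**Figure D3:**
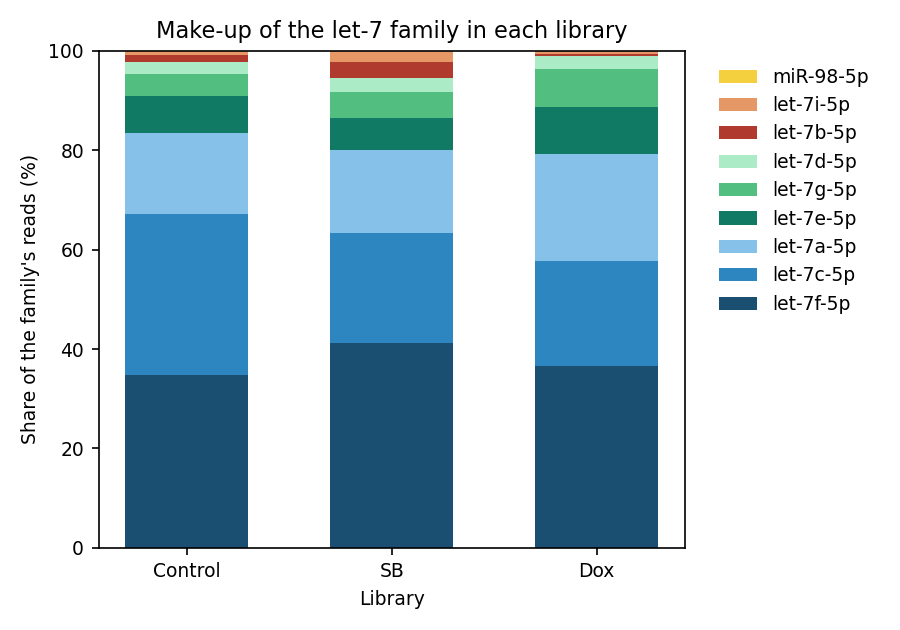
Share of each member in the reads of the let-7 family, in percent, stacked to the whole family in each library (1 library per condition). let-7f, let-7c and let-7a fill 79.3% to 83.5% of every bar, and the part of let-7c is 32.5% in Control against 22.1% in SB and 21.1% in Dox.

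A hairpin each of let-7a, let-7c and let-7e lies beside hairpins of the miR-99/100 and miR-125 families, an arrangement found across animals, in which miR-125 is the relative of the worm lin-4. On chr9 the let-7a-2 hairpin is 5212 bases from miR-100 and 45115 bases from miR-125b-1. On chr16 the let-7c-1 hairpin is 657 bases from miR-99a and 46523 bases from miR-125b-2. The let-7e hairpin on chr17 lies 95 bases from miR-99b and 368 bases from miR-125a. let-7e is therefore the only member with a single hairpin in such a group, and the only one whose reads can be set against its neighbours without a second locus.

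The neighbours on chr9 and chr16 were less abundant than let-7a and let-7c, and differed more between libraries for SB over Control and for Dox over SB. miR-100-5p was at 2.56 rpm in Control, 18.9 rpm in SB and 1.92 rpm in Dox. miR-99a-5p was at 3.19 rpm in Control, 31.9 rpm in SB and 1.62 rpm in Dox. miR-125b-5p, whose 2 hairpins lie 1 at each place, was at 97.0 rpm in Control, 352 rpm in SB and 46.5 rpm in Dox. All 3 were highest in SB, and miR-100 differed between Dox and Control only within counting error. The log2 ratio of let-7c minus that of miR-99a was -3.01 (-3.51 to -2.51) for SB over Control and 3.34 (2.61 to 4.06) for Dox over SB. let-7a differed from miR-100 by -1.98 (-2.55 to -1.41) for SB over Control and by 2.78 (2.10 to 3.45) for Dox over SB. The ratios of miR-99a, at 3.32 and -4.30, and of miR-125b, at 1.86 and -2.92, stand beside 2.06 and -3.67 for let-7b.

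The group on chr17 gave other values. miR-99b-5p was at 180 rpm in Control, 271 rpm in SB and 299 rpm in Dox. miR-125a-5p was at 101 rpm in Control, 91.1 rpm in SB and 172 rpm in Dox, and was lowest in SB, where let-7e was highest. For SB over Control the log2 ratio of let-7e differed from that of miR-99b by 0.04 (-0.04 to 0.13), within counting error, and from that of miR-125a by 0.79 (0.66 to 0.92). For Dox over SB let-7e differed from miR-99b by -0.50 (-0.58 to -0.42) and from miR-125a by -1.27 (-1.39 to -1.15). let-7e thus gave 19.0 reads per read of miR-125a in SB, against 11.0 in Control and 7.89 in Dox. The other arms from these hairpins were low in every library: miR-99b-3p between 18.3 and 58.1 rpm, miR-125a-3p between 4.49 and 6.97 rpm, and miR-125b-1-3p between 1.01 and 3.79 rpm.

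**Figure D4:**
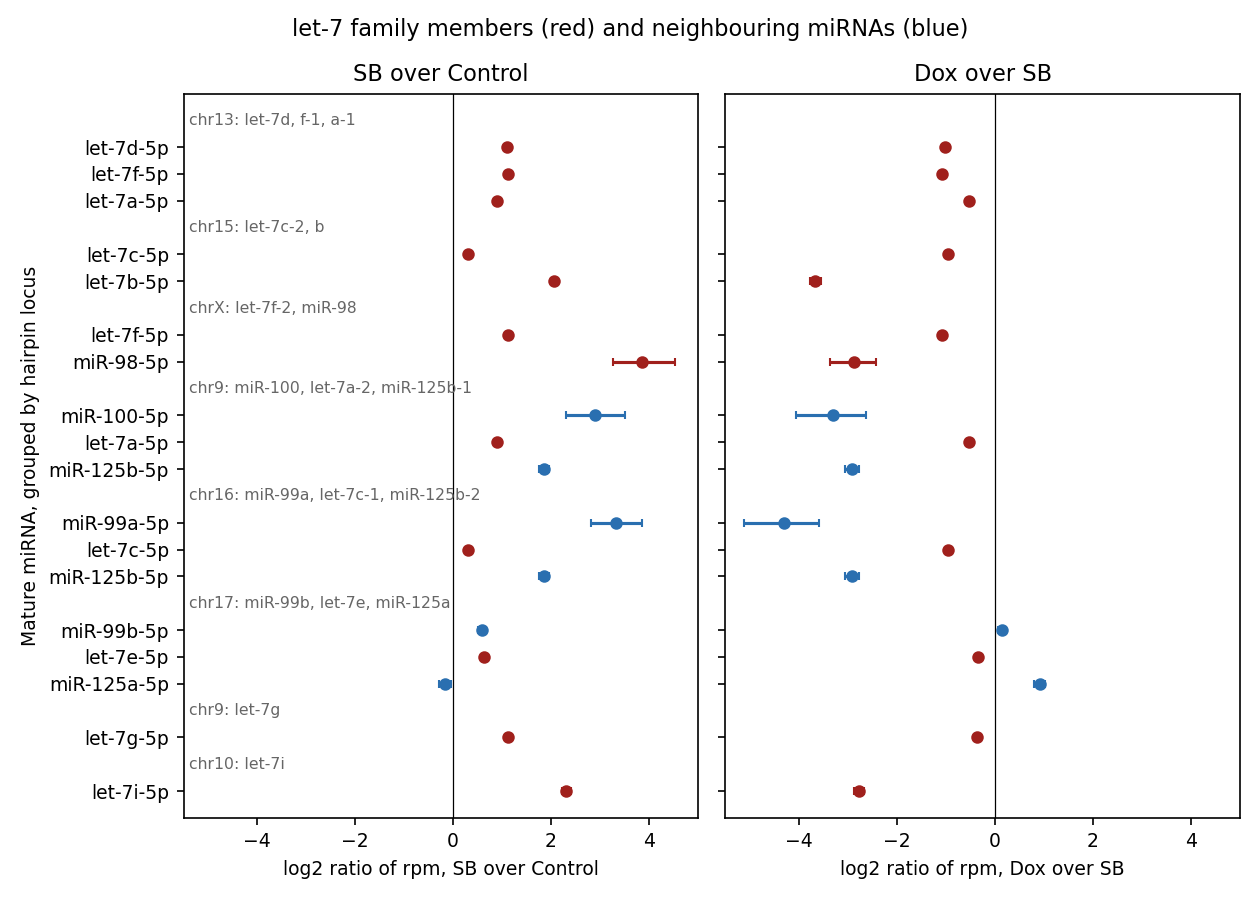
Log2 ratios of rpm with 95% exact intervals of counting error, arranged by the place of the hairpins, with let-7 family strands in red and neighbouring miRNAs in blue. A strand made from 2 hairpins appears at both places with the same value. let-7b at -3.67 and let-7c at -0.97 for Dox over SB stand apart although they have hairpins in the same host gene on chr15.

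The passenger strands of the family, the 3p arms that are mostly discarded after processing, were barely detected. Of 12 in RefSeq 4 were listed, with 2 to 23 reads in a library. let-7a-1-3p and let-7c-2-3p have the same sequence, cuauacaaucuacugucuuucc, and the same values, so they count as 1 strand. let-7d-3p was at 2.10 rpm in Control, 1.23 rpm in SB and 0.808 rpm in Dox. Its guide was highest in SB, and there were 175 reads of guide per read of passenger in Control, 643 in SB and 485 in Dox. The log2 ratio of let-7d-3p was -1.38 for Dox over Control (-2.75 to -0.17), while the intervals of all other ratios between libraries for these strands spanned 0, so differences in the passenger strands were otherwise not detectable at this depth.

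The terminal loops were read because Lin28 is known to recognise a GGAG motif there. The last 20 bases before the 3p arm, from the RefSeq hairpins, are shown for the 3 hairpins that lacked the motif and for 4 that held it, with GGAG in capitals.
let-7b: uguugccccuccgaagauaa
let-7c-2: ucugccccgcucugcgguaa
miR-98: aggccccaguaagaagauaa
let-7c-1: aguuacacccugGGAGuuaa
let-7i: auugcccgcuguGGAGauaa
let-7f-2: auaccccaucuuGGAGauaa
let-7g: accacccgguacaGGAGaua

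The letters GGAG stood in this window in 9 of 12 hairpins of the family (75%) and in 48 of 644 RefSeq mouse hairpins with both arms (7.45%). Only the strand of the transcript was searched, since the hairpin is RNA. The search was chosen with the values of the members known. The 3 hairpins without these letters give guides with very unlike values. The log2 ratios for SB over Control and Dox over SB were 3.86 and -2.88 for miR-98, 2.06 and -3.67 for let-7b, and 0.31 and -0.97 for let-7c, which also has a hairpin with the letters. let-7i held them, with log2 ratios of 2.31 and -2.77. A match of letters is a description of the window and says nothing of binding in these cells.

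Of the 157 listed miRNAs outside the family with at least 100 rpm in some library, the 5 with the pair of log2 ratios nearest to that of the family's sum were miR-143-3p, miR-221-3p, miR-22-3p, miR-34c-5p and miR-467a-5p. Their Euclidean distances ran from 0.289 for miR-143-3p to 0.441 for miR-467a-5p, over 3 libraries. miR-143-3p was at 55.5 rpm in Control, 114 rpm in SB and 71.9 rpm in Dox, and so passed the minimum of 100 rpm through SB alone, while the other 4 were above it in every library. A minimum met in any 1 library admits scarce miRNAs that are high in SB, and the likeness is a description. miR-221-3p was at 1085, 1720 and 1071 rpm in the same order, and so was near its Control level in Dox. miR-26a-5p was at 647 rpm in Control, 766 rpm in SB and 798 rpm in Dox, and was called in no comparison. For Dox over Control it was 1.23-fold higher (1.19 to 1.27), just short of a call. The paper took miR-26a as a non-responsive qPCR reference, and first picked such references by its sequencing. Its lack of a call is therefore not an independent result.

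Lists of miRNAs typical of cell types were set beside the family. The ES cell list held both arms of the miR-290 cluster but only the 3p arms of the miR-302 cluster. All 19 of its miRNAs were listed, with a summed level of 81839 rpm in Control, 65183 rpm in SB and 93791 rpm in Dox. The lowest sum in SB rested on 1 strand, miR-290-5p, at 35638 rpm in Control, 18094 rpm in SB and 37406 rpm in Dox. Without it, an alternative chosen after the values were seen, the other 18 summed to 46201, 47089 and 56386 rpm. Of the list, 5 of the 19 were called higher and 5 lower for SB over Control, with a median log2 ratio of -0.06. The 5p arms of miR-302a, miR-302d and miR-367, outside the list, were called lower in that comparison, the last with 2 reads in SB. That of miR-302b was lower as well but not called. The even split therefore rests on which arms the list holds. For Dox over SB 8 of the 19 were called higher and 8 lower, with a median of 0.19, beside 41.7% of all listed miRNAs called higher and 17.9% lower. The 5p arms of miR-302a, b and d, outside the list, were at 1.19, 2.11 and 0.25. Those of miR-302a and b were called higher, the latter with 4 reads in SB. All 14 miRNAs of a list for fibroblasts and other mesenchymal cells were also listed, with summed levels of 2885 rpm in Control, 6080 rpm in SB and 3376 rpm in Dox. In that list 12 of 14 were called higher and 0 lower for SB over Control, beside 15.3% and 30.2% of all listed miRNAs, from -0.24 for miR-152-3p to 2.41 for miR-199a-5p, with a median log2 ratio of 1.07. For Dox over SB 11 were called lower and 1 higher, with a median of -1.77, from -6.09 for miR-214-3p, which had 1 read in Dox, to 0.88 for miR-145-3p. This list holds miR-143-3p and miR-22-3p, both named above. The summed level of this list was highest in SB, as that of the family was, and its part in the result was not tested. The study's methods mention weaning from feeder cells for another assay, and give nothing on feeder cells for these libraries.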

How the data were processed

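Small RNA was sequenced from 3 TAG1 ES cell samples, 1 library per condition. According to the methods, the authors clipped adaptors with the FASTX clipper and kept reads over 16 bases. They aligned these with Bowtie (0.12.7 in the submitters' processing notes) to miRBase release 18, with perfect matches to mature sequences and then hairpins. A read with several matches was given to 1 miRNA by its length, or otherwise to every match. The authors dropped miRNAs whose reads over all libraries came to less than 10. The deposited values are reads per 1000000 (RPM).

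Here all 2079 values were whole multiples of the RPM of 1 read in their library (tolerance 0.01), which gave reads for intervals and Z-scores (Python 3.11.15, numpy 2.4.6, pandas 2.3.3, scipy 1.17.1). The step was tested on simulated data. Ratios had no pseudocount. Differences between members used normal intervals on the log scale. Named miRNAs were the members, their passenger strands, arms of hairpins within 10000 bases (and miR-125b), miR-26a-5p, the 5 nearest patterns and the extremes of lists. The family was taken up, and the lists were made, with earlier results of these data known, although the rule for members uses names alone. Hairpin positions and sequences came from RefSeq (GRCm38.p6) and host genes from GENCODE M21 (GRCm38). Alternatives were 5 other scalings, pseudocounts, call thresholds, a read minimum and sums without 1 member.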

Additional observations from a re-analysis of the deposited data

How the results depend on the processing

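The summed log2 ratio of the family kept its sign in SB over Control and in Dox over SB under every scaling tried. For SB over Control it was 0.87 as reported, 1.10 scaled to the reads on listed miRNAs, 1.05 by median of ratios, 1.07 by TMM, 1.12 by quantiles and 0.62 scaled to miR-26a-5p. Under these 5 scalings, in the same order, Dox over SB gave -1.37, -1.28, -1.23, -1.29 and -0.96, against -0.90 as reported, and Dox over Control gave -0.27, -0.23, -0.16, -0.17 and -0.34, against -0.03. Without let-7f the 3 sums were 0.71, -0.79 and -0.075. Without let-7c they were 1.07, -0.88 and 0.19, the last with its sign turned. At a fold threshold of 2 the count of members called was 6 for SB over Control, from 8, 5 for Dox over SB, from 9, and 1 for Dox over Control, from 6. All 63 values of single members under the alternatives kept their sign for SB over Control and for Dox over SB. For Dox over Control 10 of 63 turned, those of let-7d, let-7e and let-7f, none of them called. The scalings moved the median of all listed miRNAs for Dox over SB from 0.38 to between -0.09 and 0.32. Leaving out a replicate was not possible with 1 library per condition. No paired analysis was possible because each condition has 1 library and the labels give no replicate numbers. A pseudocount of 10 rpm moved miR-98 most, from 3.86 to 1.78 for SB over Control and from -2.88 to -1.55 for Dox over SB. Depth limits miR-98, with 24 reads in Control, and the passenger strands.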

Other observations

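The remaining lists of cell type miRNAs gave these values. The 3 neural miRNAs (miR-9-5p, miR-9-3p and miR-124-3p) summed to 1789 rpm in Control, 1552 rpm in SB and 2362 rpm in Dox, which is the opposite order to the let-7 family in SB. Of them 2 were called lower and 0 higher for SB over Control, beside 30.2% of all listed miRNAs called lower, and 3 were called higher for Dox over SB, beside 41.7%. Of the 4 muscle names 3 were listed, and the missing name was miR-1-3p, while miR-1a-3p was listed. Their sums were 44.0 rpm in Control, 95.1 rpm in SB and 54.7 rpm in Dox. For SB over Control 1 was called higher and 0 lower, beside 15.3% and 30.2% of all listed miRNAs. miR-206-3p had the highest log2 ratio for SB over Control, at 3.50, and was at 45.4 rpm in SB. Of the 5 blood names 2 were listed, with sums of 6.02, 5.37 and 24.2 rpm in the same order. The names not listed were miR-142-3p, miR-223-3p and miR-451a, while miR-451 was listed. A name that is missing is not by itself a strand that was absent. The liver miRNA miR-122-5p was at 5.84 rpm in Control, 24.4 rpm in SB and 19.5 rpm in Dox.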
